A study of Mus musculus with 12 samples.

Results

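Transcripts of Myc and of 41 genes of ribosome biogenesis were examined in NK cells and CD8 T cells taken from mouse tumors. The 42 members are a list of names, looked up as rows of the deposited count table. They are 42 of the 54232 gene identifiers in the table, and all 42 passed the filter on low counts (a mean normalized count of at least 10), which left 13279 genes for the tests. RNA came from 12 libraries of 300 cells each, in 6 groups of 2. NK cells were sorted as CD45+ CD3ε- NK1.1+ and CD8 T cells as CD45+ CD3ε+ CD8a+ from subcutaneous transplants of MC38, a mouse colon adenocarcinoma line, 8 to 10 days after injection into both flanks. The hosts were C57BL/6N mice, matched for sex and age (6 to 12 weeks), and were wild type (WT), Tyk2-/- (KO, without the Janus kinase TYK2) or Tyk2K923E (KE, with TYK2 protein that lacks kinase activity). Both alleles are germline changes carried by every host cell, while the injected tumor cells were the same line in all hosts, and no group received a further treatment. The labels do not say that the replicates came from separate animals, so p-values measure only the spread between these libraries, which may be technical.

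MYC is a transcription factor that lymphocytes induce when they are activated, and it binds DNA as a dimer with MAX, with a preference for the sequence CACGTG (the E-box). Among its best known targets are genes of the nucleolus, where RNA polymerase I transcribes the ribosomal RNA precursor and where small nucleolar ribonucleoproteins (snoRNPs) modify it. The small subunit processome and a chain of large subunit factors then cut and fold it into the 2 subunits of the ribosome, a costly program that growing NK and T cells share.

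Sequences from the promoters are shown because the E-box is the site through which MYC is known to act on such genes. RefSeq windows of 250 bases before to 50 bases after a gene's start (GRCm38.p6) were at hand for 35 members, with no entry for Myc, Fbl, Bop1, Rrp12, Rrs1, Npm1 and Srm. CACGTG, which reads the same on both strands, lay in the windows of 8 of the 35 members (22.9%), against 8.09% of all 27025 genes in the table and 11.9% of the 9372 genes among them that were tested here. The 8 were Mybbp1a, Grwd1, Tsr1, Utp4, Nop2, Utp20, Pes1 and Wdr43, and in 7 of them (all but Nop2) the match began after the start, which is 20% of the 35, against 1.28% of all genes and 1.96% of the genes tested. Stretches of 30 bases around the match follow for the 4 members with the smallest FDR between NK and CD8 T cells, 5′ to 3′ on the gene's strand with the E-box in capitals.
Mybbp1a, chr11:72441347-72441376, plus strand: aagtgactgtcttctgagccCACGTGtttg
Grwd1, chr7:45830740-45830769, minus strand: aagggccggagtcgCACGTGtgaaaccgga
Tsr1, chr11:74898092-74898121, plus strand: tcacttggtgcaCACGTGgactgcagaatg
Utp4, chr8:106893643-106893672, plus strand: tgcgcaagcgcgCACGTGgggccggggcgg
Counted from 1 at the RefSeq start, the first base of the match lay at position 41 for Mybbp1a, 35 for Grwd1, 25 for Tsr1 and 16 for Utp4. A match is a run of letters, not a measured site of binding.

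Total counts ranged from 10378761 to 14732882 per library, so that a count of 3, taken as the floor of detection, was worth 0.204 to 0.289 CPM (counts scaled to a library total of 1000000). Tyk2 itself did not separate the genotypes, with 60.8 and 68.9 CPM in NK cells of WT, 56.3 and 105 CPM of KO and 119 and 82.3 CPM of KE, and 48.3 and 86.1 CPM, 61.9 and 73.8 CPM and 58.9 and 46.7 CPM in CD8 T cells. These are counts over the whole gene, blind to where along the transcript the reads lie, and the genotypes rest on the labels. Defining markers followed the cell type labels: the 5 NK markers summed to 2899.7 to 6105 CPM in NK libraries and 129 to 372 CPM in CD8 libraries, and 8 T cell markers to 66 to 340.5 and 11034 to 15470.2 CPM. Of the NK libraries, 3 stood apart through macrophage transcripts. The 14 myeloid markers, all of them detected in each NK group, summed to 9807 and 9409 CPM in NK WT 1 and 2 and to 5727 CPM in NK KO 1, against 149.8 to 469 CPM in the other 3 NK libraries and 230.2 to 641 CPM in CD8 libraries. The neutrophil markers S100a8 and S100a9 and the epithelial keratins Krt8 and Krt19 were at 0 in every library. Other markers of these lists were not. Csf3r, of the neutrophil list, lay at 6.28 and 6.71 CPM in NK WT and at 0 in the NK mutants. The 6 epithelial markers summed to 0 to 50.7 CPM in NK and 0 to 26.7 CPM in CD8 libraries. The 6 B cell markers summed to 68.5 and 77.5 CPM in NK WT, 0 to 13.5 CPM in NK mutants and 0 to 10.1 CPM in CD8 libraries. In bulk samples fewer cells of a type and less RNA per cell cannot be told apart.

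Levels spanned a wide range, and a nucleolar protein led it. Per kilobase of exon, Npm1 (nucleophosmin, a chaperone of ribosome assembly) stood first at 304 CPM per kb as the mean of 12 libraries, followed by 2 proteins of the box H/ACA snoRNP, Nop10 at 132 and Nhp2 at 130.2 CPM per kb. Nop56, a scaffold of the box C/D snoRNP, reached 90, Ncl (nucleolin, which binds ribosomal RNA) 64.8 and Myc 63.4 CPM per kb. At the other end lay Rrp12 (1.98), Utp20 (2.1), Cad (2.17) and Polr1a (2.38 CPM per kb), the last of which encodes the largest subunit of RNA polymerase I. The length used was that of all annotated exons of a gene joined, which can exceed the length of a single transcript. It was 8202 bases for Ncl, 9539 for Nop58 and 10613 for Wdr12, so the order depends on the annotation. By CPM alone Npm1 (617) and Ncl (531 CPM) stood highest. The library method starts at the poly(A) tail, and whether coverage of long transcripts is even was not tested.

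Members of one complex did not share one level. By CPM per kb, as the mean of 12 libraries, the highest and lowest members were Nop56 (90) and Fbl (13.9 CPM per kb; fibrillarin, the methyltransferase) in the box C/D snoRNP, and Nop10 (132) and Gar1 (3.51 CPM per kb) in the box H/ACA snoRNP. In RNA polymerase I these were Polr1b (9.4) and Polr1a (2.38 CPM per kb), and in the PeBoW complex, which matures the large subunit, Bop1 (28.8) and Wdr12 (3.85 CPM per kb). Among small subunit factors Noc4l (43.1) was highest and Rrp12 (1.98 CPM per kb) lowest, with Wdr43, the highest of them before the correction for length, at 36.2 CPM per kb. Large subunit factors ran from Ebna1bp2 (44.4) to Rrs1 (5.09 CPM per kb). The remaining groups ran from Npm1 (304) to Mybbp1a (13.8 CPM per kb) for nucleolar proteins and from Srm (43.9; spermidine synthase) to Cad (2.17 CPM per kb; the enzyme of the first steps of pyrimidine synthesis) for metabolic targets.

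**Figure D1:**
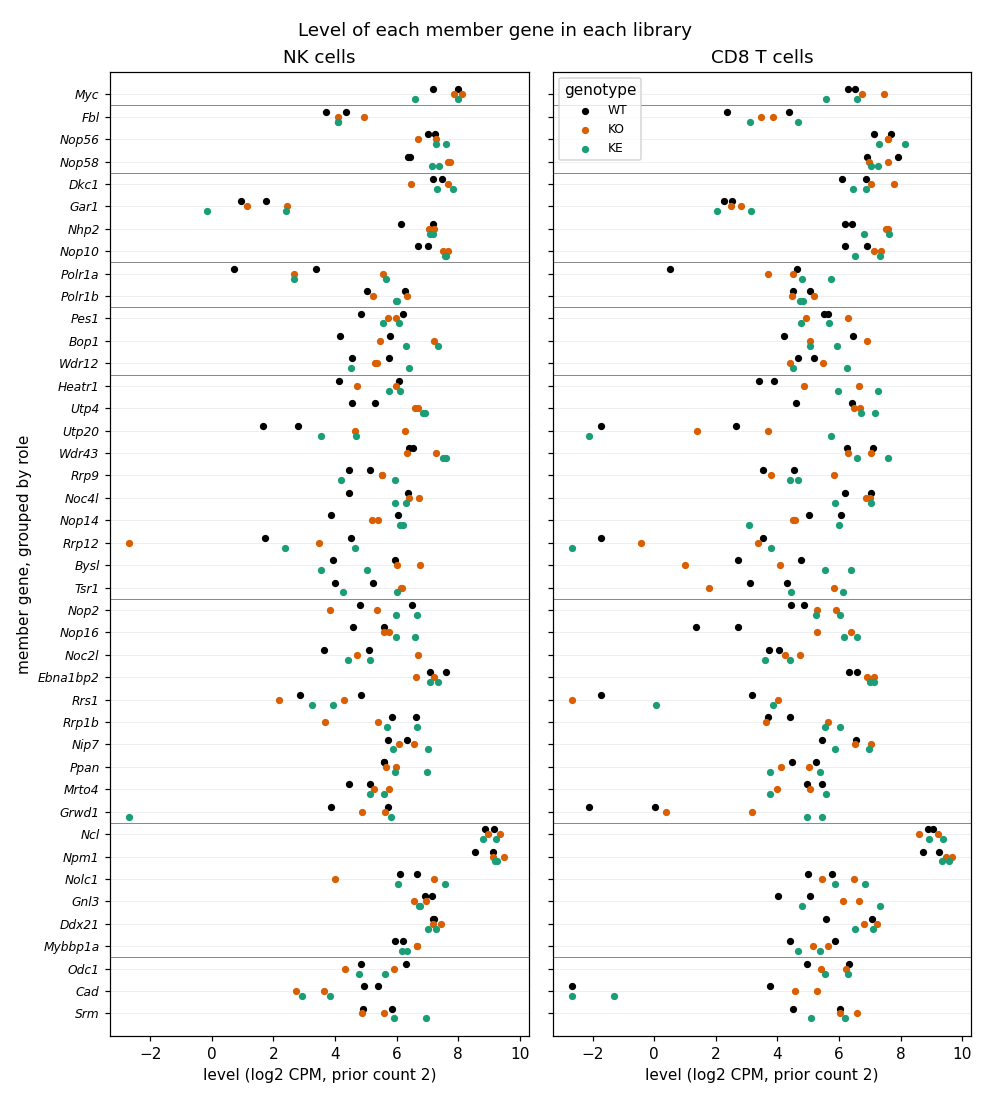
Level of each of the 42 members (rows, grouped by role) in each library as log2 CPM with a prior count of 2, NK cells on the left and CD8 T cells on the right, 2 points per genotype. Npm1 and Ncl keep their replicates close together, while Rrp12, Utp20, Rrs1, Grwd1 and Cad scatter from the floor to well above it.

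Spread between replicates set what could be seen. Replicates of a group differed by a median of 1.72-fold over the 42 members, against 1.8-fold over all genes tested and 1.58-fold over the 3285 of them whose mean CPM lay between the quartiles of the members. For the 10 members with the highest mean CPM it was 1.25-fold and for the 10 lowest 2.75-fold. The coefficient of variation between replicates estimated by edgeR ran from 26.8% for Npm1 and 27.5% for Ncl to 178% for Rrp12 (a factor of small subunit export), 148% for Rrs1, 128% for Utp20, 127% for Grwd1 and 124% for Cad. Those last 5 are the members with a library at 3 counts or fewer, and 4 of them (all but Utp20) had a library at 0. Cad, for example, gave 0 and 184 counts in the CD8 WT libraries and 3 and 0 in the CD8 KE libraries. Pseudogenes that carry the gene's name were annotated for 1 member, Mrto4. Another 3 members share over 300 exon bases with a gene on the other strand (Tsr1 with Srr, Noc2l with Samd11 and Bysl with Ccnd3), and whether the counting used strand is not given in the sources used here, so their counts are uncertain.

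**Figure D2:**
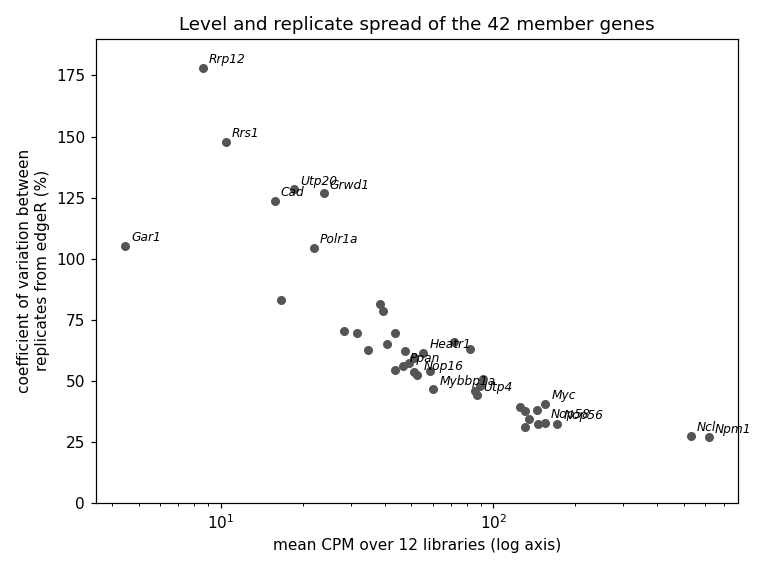
Mean CPM over 12 libraries (x axis, log scale) against the coefficient of variation between replicates from edgeR (y axis, %) for the 42 members, with 1 point each. The spread tends to fall as the level rises, from 178% for Rrp12 (8.59 CPM) to 26.8% for Npm1 (617 CPM). Gar1, at the lowest level (4.46 CPM), had 105%. The edgeR estimates are drawn toward a trend on the level.

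NK cells were compared with CD8 T cells first, over the mean of the 3 genotypes. Myc was the member with the smallest p: it lay higher in NK cells by 1.14 on the log2 scale (SE 0.30), just outside the threshold of an FDR of 0.05 (edgeR FDR 0.0551). Other members with positive values were Mybbp1a, a nucleolar binding partner of MYB, Ppan, a large subunit factor, and Polr1b, the second largest subunit of RNA polymerase I. None of the 42 passed.

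In NK cells Myc (ENSMUSG00000022346, chromosome 15, 61985391 to 61990374, plus strand) lay at 146 and 257 CPM in WT, 235 and 278 CPM in KO and 96.9 and 254 CPM in KE, and in CD8 T cells at 91.8 and 78.9 CPM in WT, 175 and 106 CPM in KO and 94.8 and 47.7 CPM in KE. The group means were 202 ± 78.3, 257 ± 30.1 and 176 ± 111 CPM in WT, KO and KE NK cells and 85.4 ± 9.12, 141 ± 49 and 71.3 ± 33.3 CPM in CD8 T cells (mean ± SD, n = 2 each). The order of the means was thus NK KO, NK WT, NK KE, CD8 KO, CD8 WT and CD8 KE. Neighbors in that order overlapped in their library values in every case but 1, CD8 KO with CD8 WT, where both KO libraries lay above both WT libraries. The 2 cell types overlapped only through NK KE 1 and NK WT 1, which lay below CD8 KO 1, and through NK KE 1 lying below CD8 KO 2 as well. Myc was called higher in NK cells by DESeq2 (FDR 0.00475), by edgeR without the filter on low counts (FDR 0.00107) and with library totals in place of TMM scaling.

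For Mybbp1a (ENSMUSG00000040463, chromosome 11, 72441355 to 72451768, plus strand) the 6 NK libraries ran from 62.2 to 102 CPM with a median of 76.8, and the 6 CD8 libraries from 21.3 to 58 with a median of 38.3 CPM (log2 fold change 1.08, SE 0.33, FDR 0.0932). Every NK library lay above every CD8 library. Ppan (ENSMUSG00000004100, chromosome 9, 20888175 to 20892178, plus strand) ran from 48 to 126 CPM (median 56.1) in NK and from 13.2 to 41.2 CPM (median 27.4) in CD8 libraries, again without overlap (log2 fold change 1.23, SE 0.41, FDR 0.13). These 2 were the members with no overlap, where 2.03% of all genes tested had all NK above all CD8 libraries. In the opposite direction there were 0 members and 2.83% of all genes. Polr1b gave 32.4 to 79.9 CPM (median 63.6) in NK and 22 to 36.3 CPM (median 27.2) in CD8 T cells (log2 fold change 1.07, SE 0.39, FDR 0.158), and here the ranges overlapped. The same held for Gnl3 (nucleostemin), with a median of 115 CPM in NK and 51.8 CPM in CD8 libraries (log2 fold change 0.98, SE 0.39, FDR 0.196), where CD8 KE 1 at 161 CPM lay above all 6 NK libraries.

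Of the whole group, 31 of the 42 members had a log2 fold change above 0 (median 0.42), against 51.4% of all genes tested (median 0.034). By these counts edgeR called 0 members (4.47% of all genes), 7 lay under an unadjusted p of 0.05 (19.3% of all genes) and DESeq2 called 4 (12% of all genes). The DESeq2 calls were Myc, Mybbp1a, Ppan and Grwd1, all higher in NK cells over the mean of the genotypes. Grwd1 lay at 52.2 and 14.6 CPM in NK WT, 29.2 and 49.4 CPM in NK KO and 0 and 56.8 CPM in NK KE. In CD8 KE it lay at 30.6 and 43 CPM, so in KE the cell types overlapped. Role groups of more than 1 member differed in their medians, from 0.87 for the 10 large subunit factors (9 above 0) and 0.56 for the 10 small subunit factors (8 above 0) to -0.20 for the 3 box C/D proteins (1 above 0). Since 3 NK libraries held macrophage transcripts, the comparison was repeated, after seeing the data, with KO and KE only and without NK KO 1: the median of the members was then 0.24 and that of all genes -0.16, the value of Myc 1.14 (FDR 0.238), of Mybbp1a 1.24 (FDR 0.286) and of Ppan 1.41 (FDR 0.326), and 0 members were called. Without NK WT 2 the median over all genotypes was 0.26 (all genes -0.048), and 1 member was called by edgeR without NK KE 1 (Myc), without CD8 WT 1 (Mybbp1a) or without CD8 KE 1 (Gnl3).

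Genes of cell division moved the other way in the same libraries. The 24 cell cycle genes summed to 576 to 1023 CPM in NK and 2239 to 5040.3 CPM in CD8 libraries, and 18 of the 24 were called lower in NK cells by edgeR (median log2 fold change -3.58), where 4.47% of all genes were called in either direction. Birc5, which encodes survivin, a mitotic protein, led them (log2 fold change -7.97, SE 0.56, FDR 2.27e-05). It lay at 20.8 and 3.62 CPM in NK WT, 0.469 and 0.296 CPM in NK KO and 0.0921 and 0.0749 CPM in NK KE. Both NK KE libraries were under the floor of 3 counts, so the size of the fitted value depends on the prior count. Members of the MYC network, the proteins that share MAX or oppose MYC, split. Mxd1, an antagonist of MYC, was called higher in NK cells (log2 fold change 1.71, SE 0.39, FDR 0.0286), and Mxd3 (log2 fold change -10.59, SE 1.79, FDR 0.0164) and Mxi1 (log2 fold change -4.07, SE 0.88, FDR 0.024), also antagonists, were called lower. Mxd3 had 0 counts in the NK WT and NK KE libraries and in NK KO, so its fitted value depends on the prior count and is no bound. Of 32 other MYC targets 1 was called, Mcm4 of the replicative helicase, lower in NK cells (log2 fold change -1.28, SE 0.28, FDR 0.0248), and of 45 other small subunit, 46 other large subunit and 19 other RNA polymerase I factors 0 were called, with 6, 3 and 2 at an unadjusted p under 0.05, where 19.3% of all genes were. The medians of these 3 lists were 0.056, 0.11 and -0.071, and that of the other MYC targets was -0.049, against 0.034 for all genes. Of 78 ribosomal protein genes tested 19 were lower and 2 higher in NK cells at an unadjusted p under 0.05, with 0 called and a median of -0.12.

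Within WT alone, 28 of the 42 members had a log2 fold change above 0 (median 0.66), against 50.3% of all genes tested (median 0.0073). Here edgeR called 0 members (0.776% of all genes), 7 lay under an unadjusted p of 0.05 (10.2% of all genes) and DESeq2 called 3 (6.23% of all genes). Nop16, a large subunit factor, lay at 24 and 47.6 CPM in NK and 2.37 and 6.38 CPM in CD8 libraries (log2 fold change 3.03, SE 0.71, FDR 0.103), and Gnl3 at 122 and 141 CPM against 15.9 and 33.4 CPM (log2 fold change 2.42, SE 0.71, FDR 0.221). Nop58, the partner of Nop56 in the box C/D snoRNP, lay lower in NK cells at 82.5 and 87 CPM in NK and 243 and 119.9 CPM in CD8 libraries (log2 fold change -1.10, SE 0.37, FDR 0.318). Ebna1bp2 (log2 fold change 0.90, SE 0.33, FDR 0.38) and Rrp1b (log2 fold change 2.21, SE 0.86, FDR 0.418), both large subunit factors, had positive values, as had Myc (log2 fold change 1.24, SE 0.52, FDR 0.456). DESeq2 called Nop16, Gnl3 and Grwd1. Without NK WT 2 the median of the members fell to 0.11, and both NK WT libraries are among those with macrophage transcripts, whose part in these differences was not tested.

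Mutant and WT CD8 T cells were compared next. The study asked with the 2 alleles what depends on the TYK2 protein and what on its kinase activity. In CD8 T cells the members lay higher in the mutants as a group: for the mean of KO and KE against WT, 35 of the 42 members had a log2 fold change above 0 (median 0.48), against 48.6% of all genes tested (median 0). No member passed the FDR threshold by edgeR, and Nop16 came nearest with log2 fold change 4.02, SE 0.71, FDR 0.0727. KO and KE are compared with the same 2 WT libraries throughout, so their 2 sets of values are not independent of each other.

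Nop16 (ENSMUSG00000025869, chromosome 13, 54584185 to 54590090, minus strand) lay at 2.37 and 6.38 CPM in WT, 83.3 and 38.4 CPM in KO and 71.3 and 95.4 CPM in KE in CD8 T cells. Both WT libraries lay far below the 4 mutant libraries and also below the 6 NK libraries, which ran from 24 to 96.9 CPM. KO against WT gave log2 fold change 3.79, SE 0.74, FDR 0.248 and KE against WT log2 fold change 4.25, SE 0.75, FDR 0.117. DESeq2 called Nop16 in both (FDR 4.86e-05 and 1.45e-06), as did edgeR without the filter on low counts (FDR 0.0157 and 0.00275). In edgeR fits that left out 1 library at a time the value for the mean of both mutants stayed between 3.48 and 4.90 on the log2 scale.

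Heatr1 (ENSMUSG00000050244, chromosome 13, 12395027 to 12440289, plus strand), a part of the small subunit processome that also aids transcription by RNA polymerase I, lay at 10.5 and 14.7 CPM in WT, 28.9 and 99.5 CPM in KO and 153 and 62 CPM in KE. All 4 mutant libraries were above both WT libraries (log2 fold change 2.72, SE 0.83, FDR 0.542), and DESeq2 called it for the mean of the mutants (FDR 0.0194). Nhp2, of the box H/ACA snoRNP that also holds telomerase RNA, showed the same order at 86.1 and 72.8 CPM in WT, 185 and 192 CPM in KO and 198 and 113 CPM in KE (log2 fold change 1.11, SE 0.36, FDR 0.621). Npm1 lay at 608 and 419 CPM in WT, 716 and 814 CPM in KO and 761 and 654 CPM in KE (log2 fold change 0.52, SE 0.23, FDR 0.725), a small difference in a gene with little spread. Gnl3 gave 15.9 and 33.4 CPM in WT, 70.2 and 100.2 CPM in KO and 161 and 27.9 CPM in KE (log2 fold change 1.86, SE 0.64, FDR 0.669), and KE 2 overlapped with WT.

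Grwd1 (ENSMUSG00000053801, chromosome 7, 45825223 to 45830944, minus strand), a WD repeat protein of the large subunit pathway, lay at 0.0741 and 0.871 CPM in WT, 1.15 and 8.8 CPM in KO and 30.6 and 43 CPM in KE. Its WT libraries held 1 and 12 counts, its KO libraries 15 and 106 and its KE libraries 370 and 587, so that WT was near the floor and KO 1 lay close to WT 2. KE against WT gave log2 fold change 6.25, SE 2.54, FDR 0.792, and DESeq2 called it (FDR 0.0309). Cad lay at 0 and 13.4 CPM in WT, 23.3 and 39.2 CPM in KO and 0.248 and 0 CPM in KE. The summed counts of KO and KE, 777 and 3, stand in a ratio of 272 per library total (exact 95% interval of the counts 92.6 to 1320, counting error only), but the WT libraries themselves gave 0 and 184 counts. Cad was called by DESeq2 for KO against KE (FDR 0.00556) and not by edgeR (log2 fold change 7.89, SE 2.73, FDR 1).

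All 4 mutant libraries lay above both WT libraries for 8 members in CD8 T cells (Nhp2, Heatr1, Utp4, Nop2, Nop16, Ebna1bp2, Grwd1 and Npm1) and below them for 0, where 6.79% of all genes tested lay above and 7.49% below. By gene tests edgeR called 0 members (0.203% of all genes), 5 lay under an unadjusted p of 0.05 (6.72% of all genes) and DESeq2 called 2 (2.46% of all genes) for the mean of the mutants. In KO against WT, 33 of the 42 members had a log2 fold change above 0 (median 0.56), against 49.1% of all genes tested (median 0), and edgeR called 0 members (0.0527% of all genes), 5 lay under an unadjusted p of 0.05 (4.82% of all genes) and DESeq2 called 1 (1.76% of all genes). In KE against WT, 31 of the 42 members had a log2 fold change above 0 (median 0.39), against 48.5% of all genes tested (median 0), and edgeR called 0 members (0.0828% of all genes), 6 lay under an unadjusted p of 0.05 (5.56% of all genes) and DESeq2 called 3 (2.47% of all genes). The DESeq2 calls were Nop16 in KO, Nop16, Heatr1 and Grwd1 in KE, and Nop16 and Heatr1 for the mean. Myc was at 0.72 (SE 0.51, FDR 0.917) in KO and -0.26 (SE 0.51, FDR 1) in KE. For KE the median depended on single libraries. Without CD8 KE 1 it was 0.010. Without CD8 WT 1 it was 0.68 and without CD8 KE 2 0.64. For the mean of both mutants it was 0.28 without CD8 KE 1, and for KO no library moved it by over 1.5 times. Cell cycle genes summed to 4256 and 4487 CPM in WT, 4283 and 5040.3 in KO and 2239 and 4575 CPM in KE, the lower KE value being KE 2, the library with the lower members. Its part in the result was not tested. CD8 libraries held 14 myeloid markers at sums of 368 and 375 CPM in WT and 230.2 to 641 CPM in the mutants. Other markers did separate the genotypes. The 7 stromal markers, of which Col1a2, Pdgfra, Pdgfrb and Lum were at 0 in every CD8 library, summed to 18.2 and 35.9 CPM in WT and 0 to 4.98 CPM in the mutants, and 2 of the 3 tested were lower at an unadjusted p under 0.05. The 6 epithelial markers summed to 1.93 and 0 CPM in WT and 2.98 to 26.7 CPM in the mutants, with Krt8, Krt19 and Krt7 at 0 in every CD8 library. Ptprc, which encodes the leukocyte antigen CD45, lay at 2518 and 2105 CPM in WT and 1677 to 2014 CPM in the mutants (log2 fold change -0.32, SE 0.14, FDR 0.725). The part of these markers in the result was not tested.

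**Figure D3:**
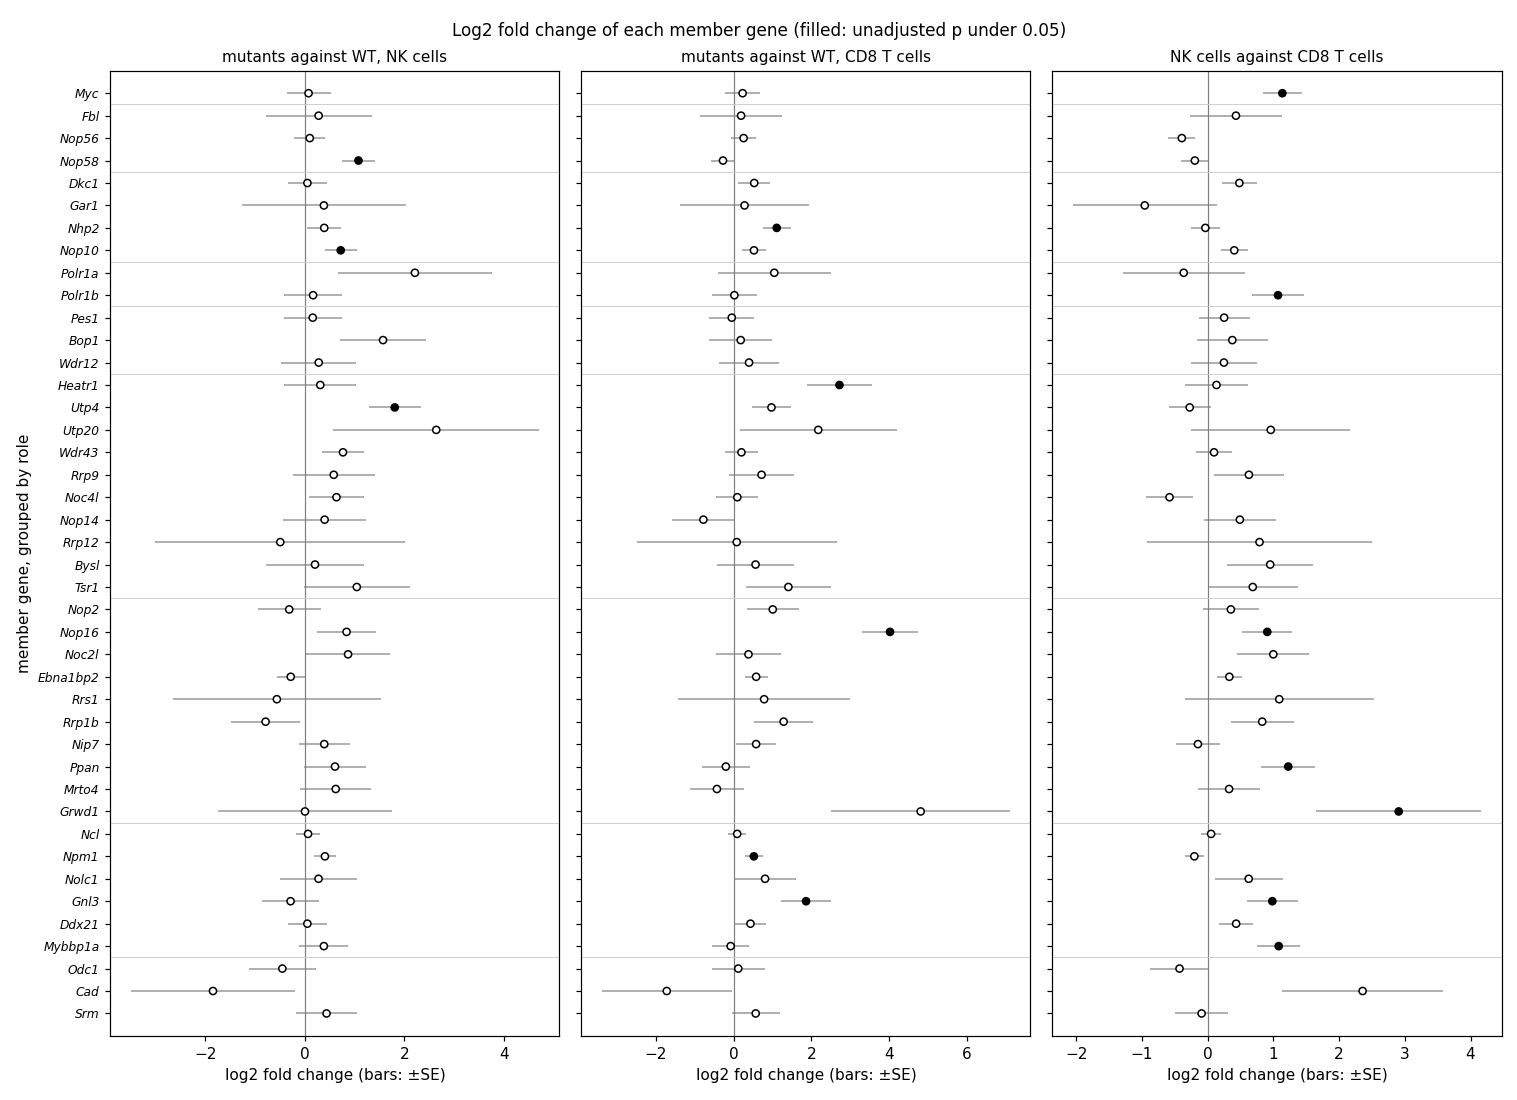
Log2 fold change of each member with its standard error (x axis) for the mean of KO and KE against WT in NK cells and in CD8 T cells, and for NK against CD8 T cells over 3 genotypes, with members in rows by role. Filled points have an unadjusted p under 0.05: 3, 5 and 7 members, all of them above 0 and none past the FDR threshold.

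In NK cells the members also lay higher in the mutants, with other genes in front. For the mean of KO and KE against WT, 34 of the 42 members had a log2 fold change above 0 (median 0.35), against 45.6% of all genes tested (median -0.046). Utp4, a processome protein of the subcomplex that couples ribosomal DNA transcription to processing, and Nop58 had the smallest p. In all NK comparisons of mutants with WT, macrophage transcripts were highest in WT, no WT library was low in them, and genotype and macrophage content cannot be told apart. Sums of lymphocyte markers differed too. The 8 T cell markers summed to 66 and 112 CPM in NK WT, 91 and 319.5 in NK KO and 227 and 340.5 CPM in NK KE, so KO 1 lay between the WT libraries. The 5 NK markers summed to 2899.7 and 3938 CPM in WT and 4501 to 6105 CPM in the mutants. By edgeR 0 of these markers were called. At an unadjusted p under 0.05, 2 of 7 T cell and 1 of 5 NK markers tested were higher, where 9.04% of all genes lay in either direction. The 6 B cell markers summed to 68.5 and 77.5 CPM in NK WT and 0 to 13.5 CPM in the NK mutants. The part of these markers in the result was not tested.

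Utp4 (ENSMUSG00000041438, chromosome 8, 106893636 to 106923088, plus strand) lay at 38.9 and 23.3 CPM in WT, 96.3 and 105 CPM in KO and 115 and 121 CPM in KE in NK cells. All 4 mutant libraries were above both WT libraries (log2 fold change 1.81, SE 0.52, FDR 0.332). DESeq2 called it for the mean of the mutants (FDR 0.0263). Nop58 (ENSMUSG00000026020, chromosome 1, 59684971 to 59719044, plus strand) gave 82.5 and 87 CPM in WT, 203 and 211 CPM in KO and 167 and 143 CPM in KE (log2 fold change 1.08, SE 0.33, FDR 0.354). Nop10, of the box H/ACA snoRNP, gave 104 and 129.8 CPM in WT, 183 and 203 CPM in KO and 195 and 189 CPM in KE (log2 fold change 0.72, SE 0.32, FDR 0.548), where the mutants were close together and above WT. For Bop1 the values were 17.9 and 54.5 CPM in WT, 43.8 and 149.6 CPM in KO and 78.5 and 161 CPM in KE (log2 fold change 1.57, SE 0.87, FDR 0.668), and KO 1 lay between the WT libraries. Npm1 gave 377 and 564 CPM in WT, 564 and 726 CPM in KO and 580.2 and 620.5 CPM in KE (log2 fold change 0.40, SE 0.22, FDR 0.67), and KO 1 lay just below WT 2. Wdr43 (log2 fold change 1.11, SE 0.49, FDR 0.809 in KE) and Rrp1b (log2 fold change -1.53, SE 0.84, FDR 0.766 in KO) complete the members with the smallest p in single mutants.

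Libraries of the mutants all lay above both WT libraries for 7 members in NK cells (Nop58, Nop10, Utp4, Utp20, Nop16, Ppan and Mrto4), against 7.08% of all genes tested, and below them for 1 (Cad, at 30.3 and 42.3 (WT), 12.4 and 6.5 (KO) and 7.46 and 14 CPM (KE)), against 10.8%. By gene tests edgeR called 0 members (0.0301% of all genes), 3 lay under an unadjusted p of 0.05 (9.04% of all genes) and DESeq2 called 1 (3.44% of all genes) for the mean of the mutants, the DESeq2 call being Utp4. In KO against WT, 29 of the 42 members had a log2 fold change above 0 (median 0.26), against 46.1% of all genes tested (median -0.0088), and edgeR called 0 members (0% of all genes), 2 lay under an unadjusted p of 0.05 (6.3% of all genes) and DESeq2 called 0 (2.85% of all genes). In KE against WT, 31 of the 42 members had a log2 fold change above 0 (median 0.37), against 46.9% of all genes tested (median 0), and edgeR called 0 members (0% of all genes), 3 lay under an unadjusted p of 0.05 (6.01% of all genes) and DESeq2 called 0 (2.91% of all genes). Myc was at 0.35 (SE 0.51, FDR 1) in KO and -0.20 (SE 0.51, FDR 1) in KE. The 2 WT libraries differed in the members, and the medians moved with them: without NK WT 2 they were 0.61 in KO, 0.83 in KE and 0.70 for the mean, and without NK WT 1 0.21 in KE and 0.18 for the mean. Without NK KE 2 they were 0.10 in KE (all genes -0.10) and 0.22 for the mean (all genes -0.13). Of the 24 cell cycle genes, 9 lay lower and 1 higher in NK mutants at an unadjusted p under 0.05 (median -2.12), and 1 (Birc5) was called lower by edgeR, where 0.0301% of all genes were called. Birc5 lay at 20.8 and 3.62 CPM in WT, 0.469 and 0.296 CPM in KO and 0.0921 and 0.0749 CPM in KE, the KE values being under the floor of 3 counts. In the fits without NK WT 1, without NK KE 1 or without NK KE 2 edgeR called 0 genes in this comparison, so the call of Birc5 was lost in each, and the other fits that left out 1 library called 1 to 25 genes.

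The 2 mutants were then compared with each other. In NK cells KO against KE left 21 members above and 21 below 0 (median -0.017), and edgeR called 0 members (0% of all genes), 0 lay under an unadjusted p of 0.05 (3.8% of all genes) and DESeq2 called 0 (1.54% of all genes). Nop2, an RNA methyltransferase of the large subunit, had the smallest p at 14.3 and 41.1 CPM in KO and 62.8 and 101 CPM in KE (log2 fold change -1.56, SE 0.76, FDR 1). The 14 myeloid markers summed to 5727 and 149.8 CPM in NK KO and 277 and 469 CPM in NK KE, and their part in this comparison was not tested. In CD8 T cells 18 members were above and 24 below 0 (median -0.083), and edgeR called 0 members (0% of all genes), 2 lay under an unadjusted p of 0.05 (3.62% of all genes) and DESeq2 called 1 (1.18% of all genes), Cad. Bysl (bystin, of the small subunit) gave 16.8 and 1.83 CPM in KO and 46.5 and 83.1 CPM in KE (log2 fold change -2.79, SE 1.20, FDR 1), and Myc 175 and 106 CPM and 94.8 and 47.7 CPM (log2 fold change 0.98, SE 0.51, FDR 1). Both medians changed sign when single KE libraries were left out, reaching 0.19 without NK KE 2 and 0.34 without CD8 KE 1, and in NK cells also without NK KO 1 (0.017). These values describe libraries in which the smallest member FDR by edgeR was 1, and they do not show that the 2 mutants act alike.

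The interaction tested whether KO or KE had unlike effects in NK and CD8 T cells. It takes in the NK comparison of mutants with WT, where genotype and macrophage content cannot be told apart. The 14 myeloid markers had a median log2 fold change of -1.94 in the interaction of KO and of -5.95 in that of KE. Their part in the values of the members was not tested. For KO, edgeR called 0 members (0.00753% of all genes), 2 lay under an unadjusted p of 0.05 (5.29% of all genes) and DESeq2 called 0 (1.49% of all genes). For KE, edgeR called 0 members (0% of all genes), 3 lay under an unadjusted p of 0.05 (6.19% of all genes) and DESeq2 called 0 (2.09% of all genes). The medians of the members were -0.074 and -0.025, and those of all genes -0.073 and -0.069. Leaving out single libraries changed the sign of both medians: that of KO ran from -0.36 without CD8 WT 1 (all genes -0.21) to 0.061 without NK WT 2 (all genes 0.062), and that of KE from -0.43 without NK KE 2 (all genes -0.23) to 0.27 without CD8 KE 1 (all genes 0.050). Nop16 led in both, with log2 fold change -3.28, SE 0.96, FDR 0.896 for KO and log2 fold change -3.08, SE 0.96, FDR 0.737 for KE, beside NK levels of 24 and 47.6 (WT), 47.8 and 54.2 (KO) and 63.6 and 96.9 CPM (KE). Nop58 stood on the opposite side (log2 fold change 1.47, SE 0.52, FDR 0.896 for KO), beside 243 and 119.9 (WT), 192 and 126 (KO) and 152 and 129.9 CPM (KE) in CD8 T cells. Gnl3 (log2 fold change -2.06, SE 0.96, FDR 0.896 for KO) was the third member in both. No difference between the cell types was shown for a member at the FDR threshold.

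The members were also summed up by library. For each member the log2 CPM in a library was set against its own mean over the 12 libraries, and the median of the 42 values was taken. It was -0.29 and 0.26 in the NK WT libraries, 0.37 and 0.29 in NK KO and 0.30 and 0.62 in NK KE. Among CD8 libraries WT stood at -0.43 and -0.50, KO at -0.025 and 0.18 and KE at 0.53 and -0.20. All 4 mutant libraries were thus above both WT libraries in each cell type, in NK cells by a narrow step above WT 2 and in CD8 T cells by a step from KE 2 to WT 1. By this median the 2 CD8 WT libraries were the lowest of the 12. Of the members 16 and 8 lay above their own mean there, and 15 did in CD8 KE 2, while NK KE 2 was the highest with 38. The same median over all genes tested lay between -0.10 and 0.086 in the 12 libraries.

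**Figure D4:**
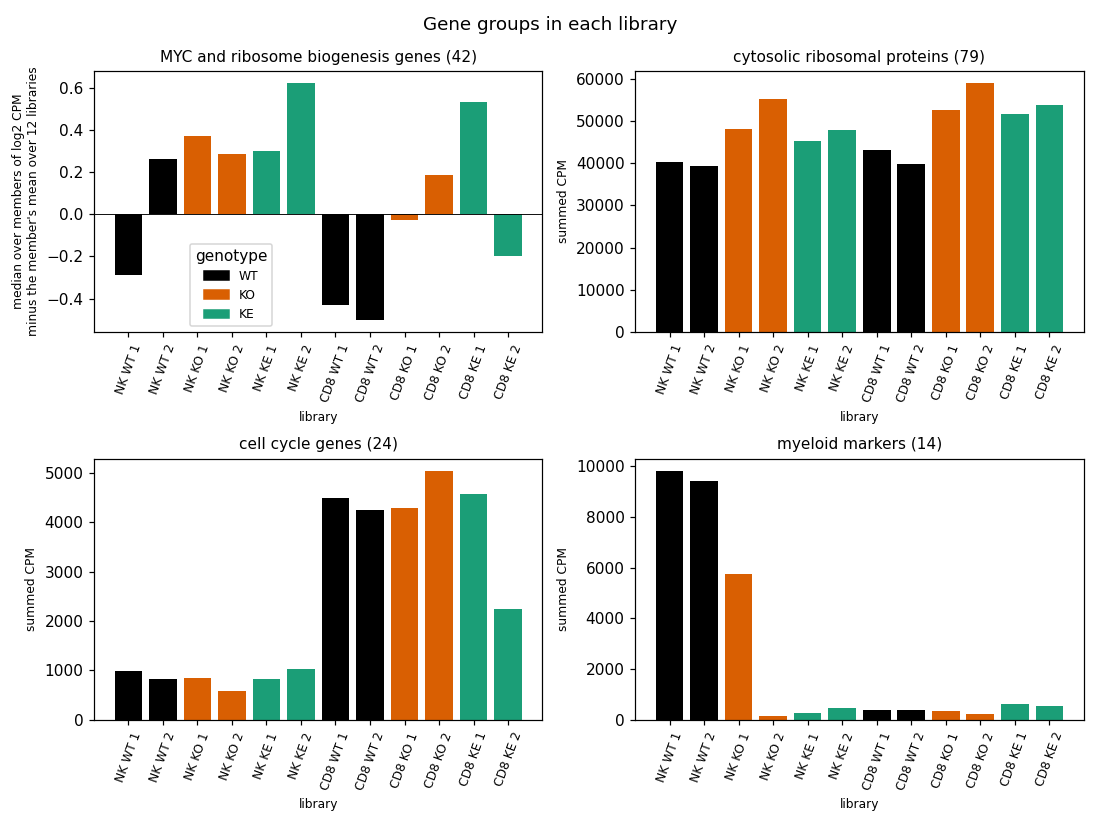
Gene groups in each of the 12 libraries (x axes, bars by genotype): the median over the 42 members of log2 CPM minus the member's own mean, and the summed CPM of 79 ribosomal protein genes, 24 cell cycle genes and 14 myeloid markers. WT libraries are the lowest of their cell type for the members and for ribosomal proteins, cell cycle genes are high in all CD8 libraries, and macrophage markers are high in NK WT 1, NK WT 2 and NK KO 1.

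Members varied together from library to library only weakly. After the mean of the cell type was taken off each gene, Pearson's r between pairs of members averaged 0.15 over the 12 libraries, against 0.0031 for pairs of all genes tested and 0.69 for pairs of 78 ribosomal protein genes. The closest pair was Nop10 and Utp20 (r = 0.86), then Nhp2 and Npm1 (0.86) and Fbl and Ddx21, a nucleolar RNA helicase (0.84). Points of such a correlation share their libraries, and genotype is part of what they share. The median r of the other 41 members with Myc was 0.20, with 32 above 0, against a median of 0.0081 over 13278 genes. Those most like Myc were Mybbp1a (0.52), Gar1 (0.52), Cad (0.44), Noc2l (0.42) and Bop1 (0.42), the first of them at rank 684 among all genes. Over all genes tested the 5 with the highest r were Gigyf2 (0.88), Nudt6 (0.87), Hectd3 (0.85), Ttc21b (0.85) and Bend3 (0.85). These are descriptions over 12 points.

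Among the other genes of the pathway, the ribosomal proteins come first. These are the building blocks that the nucleolus joins to ribosomal RNA, and their 79 genes summed to 40242 and 39317 CPM in NK WT, 48126 and 55127 in NK KO and 45372 and 47978 CPM in NK KE. In CD8 T cells the sums were 43091 and 39917 CPM in WT, 52568 and 58977 in KO and 51669 and 53896 CPM in KE. Every mutant library lay above both WT libraries of its cell type. Of 78 such genes tested, 56 in NK and 63 in CD8 T cells had all 4 mutant libraries above both WT libraries, against 7.08% and 6.79% of all genes, and 0 had them below. The step was small, with a median log2 fold change for the mean of the mutants of 0.32 in NK and 0.39 in CD8 T cells. No ribosomal protein was called by edgeR, and 16 in NK and 35 in CD8 T cells were higher at an unadjusted p under 0.05, with 0 lower, where 9.04% and 6.72% of all genes lay in either direction. In KO against WT these counts were 25 in NK and 37 in CD8 T cells, led by Rplp1 (log2 fold change 0.63, SE 0.18, FDR 0.608) and Rplp0 (log2 fold change 0.55, SE 0.13, FDR 0.498), both of the ribosomal stalk, where 6.3% and 4.82% of all genes lay under that p in either direction. In KE against WT they were 4 and 17, led by Rpl21 (log2 fold change 0.52, SE 0.18, FDR 0.693) and Rpl10 (log2 fold change 0.75, SE 0.17, FDR 0.247), where 6.01% and 5.56% of all genes lay under it, a share that the 4 of 78 in NK cells did not exceed. As the genes move together between libraries, 78 genes are far fewer than 78 separate measurements, and many have near-identical copies whose reads may not align to 1 place.

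The remaining lists were described in the same way. With the mean of the mutants set against WT in NK cells, median log2 fold changes were 0.27 for 45 other small subunit factors, 0.27 for 46 other large subunit factors, 0.20 for 19 other RNA polymerase I factors and 0.092 for 32 other MYC targets, against -0.046 for all genes. In CD8 T cells these medians were 0.13, 0.18, -0.40 and 0.32, against 0 for all genes. No gene of these 4 lists was called by edgeR in either cell type. In NK cells 1, 3, 2 and 3 of them lay under an unadjusted p of 0.05 (9.04% of all genes did), and in CD8 T cells 5, 4, 2 and 4 (6.72% of all genes). In NK KO the gene of the 4 lists with the smallest p was Taf1c, a subunit of the selectivity factor that brings RNA polymerase I to its promoter (edgeR FDR 0.608). It had 221 and 231 counts in NK WT, 1 and 0 in NK KO and 121 and 499 in NK KE, so both KO libraries were under the floor of 3 counts, and no fold change is given because the fitted value depends on the prior count. In NK KE and for the mean of the mutants the smallest p were those of Cct5, of the TRiC chaperonin, and Ldha, lactate dehydrogenase A of glycolysis. Ldha had values below 0 in KO (log2 fold change -0.82, SE 0.24, FDR 0.614) and KE (log2 fold change -0.93, SE 0.24, FDR 0.461), and Cct5 values above 0 in both (log2 fold change 0.75, SE 0.24, FDR 0.675 in KO and log2 fold change 0.95, SE 0.24, FDR 0.438 in KE). In CD8 T cells Tbl3, a processome protein, had the smallest p of the 4 lists in KE, with a value above 0 (log2 fold change 2.05, SE 0.53, FDR 0.438), and Riok1, a kinase of small subunit maturation, had it in KO, with a value below 0 (log2 fold change -1.40, SE 0.43, FDR 0.887). Of the MYC network 9 of 11 genes were tested (Mycl had no count in any group), with a median of -0.51 in NK and 0.14 in CD8 T cells. Mxi1 in NK KE (log2 fold change -6.77, SE 1.77, FDR 0.47) and Mxd1 in CD8 KO (log2 fold change -2.09, SE 0.68, FDR 0.887) had the smallest p in it.

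**Figure D5:**
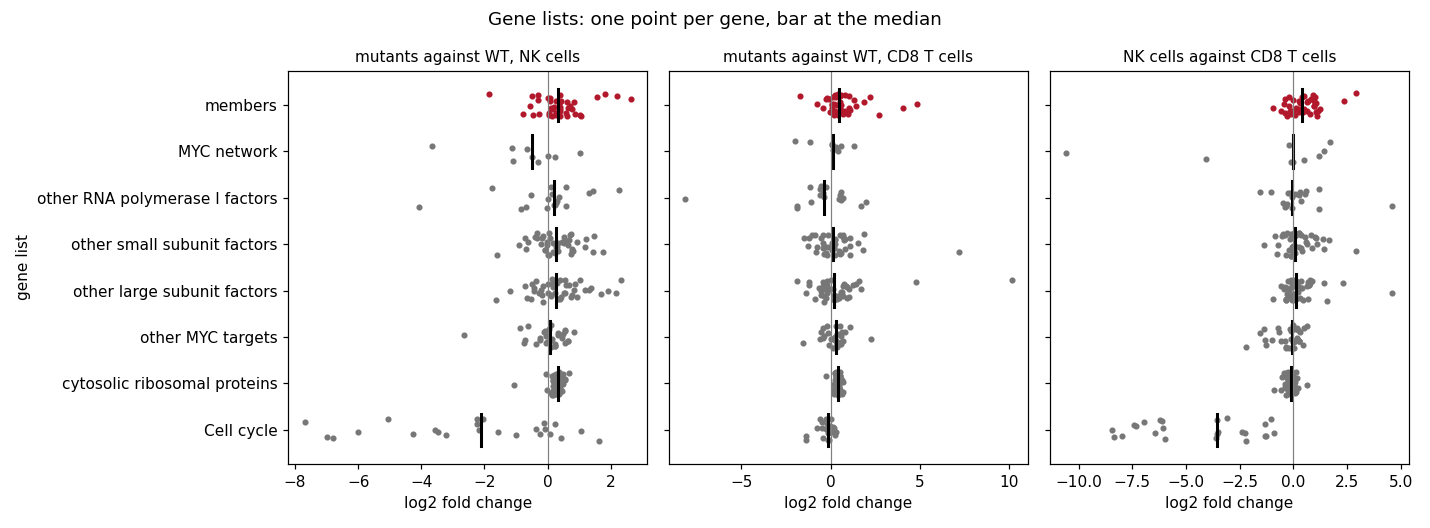
Log2 fold change of every gene tested in each list (points, bar at the median) for the mean of the mutants against WT in NK and CD8 T cells and for NK against CD8 T cells, with a separate x scale per panel. Ribosomal proteins form a tight cluster right of 0 in both mutant panels, members lie mostly right of 0 in all 3, and cell cycle genes lie far left of 0 between NK and CD8 T cells.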

How the data were processed

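RNA of 12 libraries (2 each of NK and CD8 T cells from WT, KO and KE tumors) was measured by Smart-seq2. The deposited table holds counts: the authors trimmed single-end reads (Trimmomatic), aligned them with STAR to GRCm38 (mm10) and counted uniquely aligned reads in exons, without normalization. Totals of 10378761 to 14732882 counts per library set the floor, and intervals cover counting error only. Groups came from the sample labels.

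The tests covered 13279 genes whose normalized counts averaged 10 or more. One edgeR 4.0.16 quasi-likelihood model (R 4.3.3, limma 3.58.1, TMM, robust) was fitted to all 12 libraries, one mean per group, with Benjamini-Hochberg FDR over all genes. A gene was called at FDR under 0.05 and a log2 fold change of at least 1 in size. The SE is the log2 fold change divided by the root of F. CPM are TMM-scaled, with a prior count of 2 on the log2 scale. The script was tested on simulated data.

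The members and lists were chosen with earlier results of these data known. Text names Myc, the 5 members with the smallest p per comparison, the highest and lowest member of each role, up to 3 genes per list, and other members where a count of 5 or fewer or a library pattern points to them. Alternatives were DESeq2 1.42.0, other scalings and filters, each cell type alone, a replicate block and leaving out each library. Same-numbered replicates did not deviate together (correlations -0.0205 to 0.0082), so numbers were not taken as pairs.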

Additional observations from a re-analysis of the deposited data

Results flagged for a closer look

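Cad, the enzyme of the first steps of pyrimidine synthesis, had both KO libraries below both WT libraries in NK cells and above both WT libraries in CD8 T cells. In NK cells it lay at 30.3 and 42.3 CPM in WT and 12.4 and 6.5 CPM in KO, and in CD8 T cells at 0 and 13.4 CPM in WT and 23.3 and 39.2 CPM in KO. The interaction, the KO effect in NK minus that in CD8 T cells, was -4.16 on the log2 scale (SE 2.92, edgeR FDR 0.978), and so did not pass the threshold. One CD8 WT library had 0 counts of Cad and the other 184. The KE libraries lay at 7.46 and 14 CPM in NK and 0.248 and 0 CPM in CD8 T cells, so KE did not lie above WT in CD8 T cells. Both NK WT libraries are among those with macrophage transcripts, whose part in this pattern was not tested.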

How the results depend on the processing

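No member was called by edgeR in any of the 12 comparisons, and this count changed with the tool, the filter and single libraries. DESeq2 called 1 member for KO against WT, 3 for KE against WT, 1 for KO against KE and 2 for the mean of the mutants in CD8 T cells, 1 for the mean of the mutants in NK cells, and 3 (WT) and 4 (3 genotypes) for NK against CD8 T cells. Without the filter on low counts edgeR called 1 for KO against WT, 2 for KE against WT and 1 for the mean of the mutants in CD8 T cells, and 3 (WT) and 2 (3 genotypes) for NK against CD8 T cells. Library totals in place of TMM gave 1 (Myc) for NK against CD8 T cells over 3 genotypes, and leaving out single libraries gave 0 to 1. The replicate block gave 1 there (Myc, 1.12) and changed no other call of a member. Over all genes it moved the calls from 594 to 423 in that comparison, from 27 to 6 for the mean of the mutants in CD8 T cells and from 4 to 0 in NK cells, where Birc5 was lost. Over fits that left out 1 library the median of the members ran from 0.21 to 0.61 for KO, 0.10 to 0.83 for KE and 0.18 to 0.70 for their mean against WT in NK cells, 0.010 to 0.68 for KE against WT and -0.15 to 0.34 for KO against KE in CD8 T cells, 0.11 to 0.66 for NK against CD8 T cells in WT and -0.43 to 0.27 for the interaction of KE. Myc changed sign in these fits, with -0.0040 to 0.79 for KO, -1.05 to 0.34 for KE and -0.35 to 0.52 for their mean in NK cells, -0.84 to 0.15 for KE and -0.060 to 0.44 for the mean in CD8 T cells, and -0.70 to 0.10 and -0.75 to 0.64 for the interactions of KO and KE. Myc was above 0 between NK and CD8 T cells in all of them. Where a fit left 1 library in a group, that library was assumed to vary like the others. The cause of these changes was not tested. Precision is limited by 2 libraries per group and by a common coefficient of variation of 109% between replicates.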
